A study of Homo sapiens with 6 samples.

Results

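The first of 2 replicate (rep) libraries of H3.3-G34W cells held RNA from 247 genes that stood far lower in the libraries beside it. The 247 genes, called members here, were chosen by their values in this library: each had a normalised estimated count of at least 100 there and at least 10 times the highest value among EV rep 2, H3.3-G34W rep 2, H3.3-WT rep 1 and H3.3-WT rep 2. They are 247 of the 12508 genes outside chromosome Y that reached 100 in H3.3-G34W rep 1 (1.97%), in a table of 35639 genes. Because the values chose the members, their number, levels and ratios are a description, and no test is attached to them.

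hFOB 1.19 cells, grown here at 34 °C, are fetal human osteoblastic cells that a heat-sensitive form of the SV40 large T antigen keeps dividing. Lentivirus carried either no histone (EV) or Drosophila H3.3 with an HA tag at its C-terminus, as the wild-type protein (H3.3-WT) or with tryptophan in place of glycine 34 (H3.3-G34W), each ahead of an IRES-dTomato reporter. Cells were sorted for dTomato by flow cytometry and collected in duplicate 15 days after transduction, and libraries of poly(A)-selected RNA were sequenced. The methods describe 2 library preparations, a directional one and a TruSeq one, and do not say which library had which. Titles and genotype entries contradict each other for 4 libraries, since those titled G34W are entered as H3.3-WT and those titled WT as H3.3-G34W; groups here follow the titles. The transgene is a Drosophila gene, so human H3-3A values do not check either label. By the methods, replicates of an experiment were in general different wells; whether the 2 libraries of a line came from different infections is not given.

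EV rep 1 was left out by the rule that chose the members. Its column was above 0 for 6951 genes, against 19242 to 21122 genes in the other 5 libraries, and its values summed to 1.58e+08 against 3.88e+07 to 4.80e+07. It is described on its own after the other results. All values are normalised estimated counts. Whether a factor for each gene entered beside that of the library is not given in the sources used here. Levels are therefore compared between libraries. Orders of genes by value, and shares of a library, use the values as given and are less certain.

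Pluripotent stem cells keep the capacity to form every cell type of the embryo through a core of transcription factors, of which POU5F1 (OCT4), SOX2 and NANOG are the best known. Human lines are usually kept in a primed state, which resembles the epiblast shortly before gastrulation, forms an epithelial sheet with E-cadherin, and depends on FGF and on signals of the Nodal and activin family; the naive state resembles the earlier blastocyst and uses other factors such as KLF17. Osteoblastic cells are mesenchymal: they produce fibrillar collagens and vimentin, and most of the pluripotency core is silent in them. On leaving the primed state, cells switch on germ layer genes such as TBXT in mesoderm, SOX17 in endoderm and PAX6 in neural ectoderm.

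The cell type named in the labels was checked against 28 markers of mesenchymal and osteoblastic cells, and all 28 were above 0 in each of the 5 libraries. COL1A2, a chain of type I collagen, stood at 111335 in EV rep 2, 91016 in H3.3-G34W rep 1, 138799 in H3.3-G34W rep 2, 98769 in H3.3-WT rep 1 and 90034 in H3.3-WT rep 2. RUNX2, the transcription factor that commits cells to the osteoblast lineage, stood at 573, 236, 445, 387 and 430 in the same order. Both genes were present in all 5 libraries, and RUNX2 was lowest in H3.3-G34W rep 1.

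The same rule was applied with each of the other 4 libraries in the place of H3.3-G34W rep 1. It found 1 gene in EV rep 2, 1 in H3.3-G34W rep 2, 0 in H3.3-WT rep 1 and 3 in H3.3-WT rep 2. The gene of H3.3-G34W rep 2 was LRP1B, a large endocytic receptor, at 2098 against at most 69.5 elsewhere. That of EV rep 2 was the heat shock gene HSPA1B, at 122 and listed at 0 in the other 4, and those of H3.3-WT rep 2 were ATP13A4, ODAPH and PKD1P5. None of these 5 genes was a member, and they were looked up after the counts were seen. The mirror rule, with the lowest of the other 4 libraries at least 100 and at least 10 times the library in question, found 1 gene in H3.3-G34W rep 1. This was TLCD2, listed at 0 there and between 122 and 213 in the other 4. The mirror rule also found PPP1R11 in EV rep 2 and MMP11, DDAH2 and AC004832.3 in H3.3-WT rep 2, and 0 genes in the remaining 2 libraries.

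The difference between the libraries held at every fold tried. At 5-fold, 370 genes of H3.3-G34W rep 1 stood above the other 4 libraries, against 1 to 6 genes in each of those libraries. At 20-fold there were 166 genes against at most 1, at 50-fold 76 against at most 1, and at 100-fold 36 against at most 1. At 2-fold the counts were 663 in H3.3-G34W rep 1, 76 in H3.3-WT rep 2, 22 in EV rep 2, 21 in H3.3-G34W rep 2 and 16 in H3.3-WT rep 1. H3.3-G34W rep 2 was therefore among the libraries with few such genes.

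**Figure D1:**
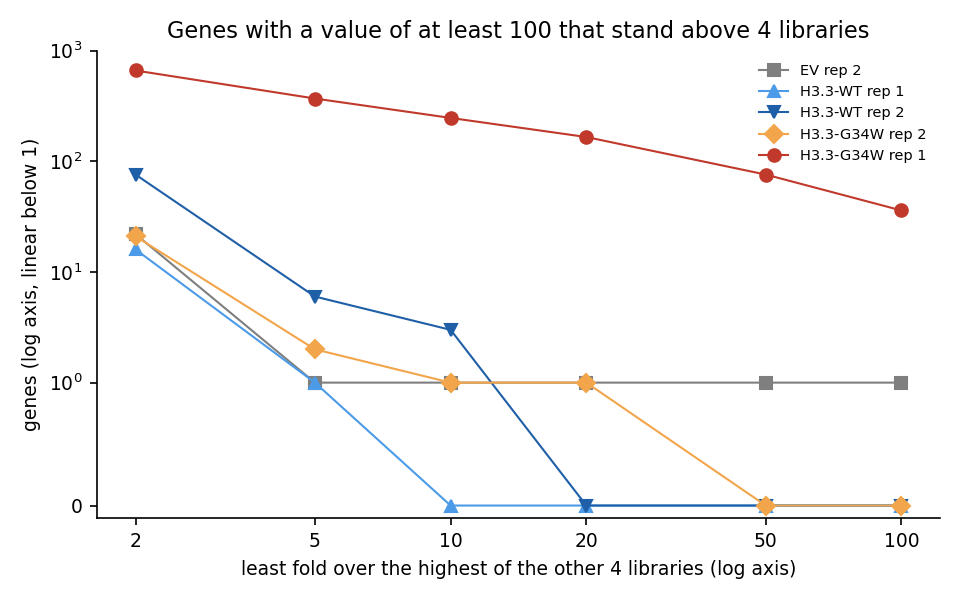
Number of genes that reached 100 in a library (y axis, log scale, linear below 1) that stood above the highest of 4 other libraries by at least the fold on the x axis (log scale), for each of 5 libraries. H3.3-G34W rep 1 holds 663 genes at 2-fold and 36 at 100-fold; each other library holds at most 76 at 2-fold and at most 1 at 100-fold.

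Of the 247 members, 239 were protein-coding genes and 7 were pseudogenes. Their values in H3.3-G34W rep 1 ran from 101 to 78864, with a median of 350.3 and quartiles of 176 and 877. The ratio to the highest of the other 4 libraries had a median of 28.2 and quartiles of 15.8 and 55.0 over the 238 members above 0 elsewhere. Most members were low and not absent in the other libraries: the median member stood at 6.83 in EV rep 2, 6.62 in H3.3-G34W rep 2, 7.82 in H3.3-WT rep 1 and 5.51 in H3.3-WT rep 2. The remaining 9 members were listed at 0 in all 4, and for these no ratio is given. They were KLK6 (240.1 in H3.3-G34W rep 1), TRIM26 (192), HTR3A (169), KLK5 (168), SYT4 (144), FGF19 (142), TAFA4 (141), PCDHA12 (110.1) and the pseudogene SRP9P1 (105), named after their values were seen.

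Among the 10 largest ratios were those of SLC7A3 (452), ZIC2 (320.0), ZIC5 (319), OTX2 (301), POU5F1 (258), NTS (255), TDGF1 (229), CLDN6 (219) and SFRP2 (206). NTS, the precursor of the peptide neurotensin, stood at 887 against 3.47 in H3.3-G34W rep 2, the library on which its ratio rests. It stood at 1.65 in EV rep 2 and 0.732 in H3.3-WT rep 1, and was listed at 0 in H3.3-WT rep 2. Just inside the 10-fold line were JPH4 (10.02), GCNT4 (10.1) and MARVELD3 (10.1), and just outside it SLC38A4 (9.90), MSANTD3-TMEFF1 (9.70) and GNG7 (9.64). On the value threshold of 100, FOXD3 (101), ZMAT4 (102) and CBLC (103) lay just inside, and CLC (99.8), DTX1 (99.4) and UGT3A1 (93.2) just outside.

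**Figure D2:**
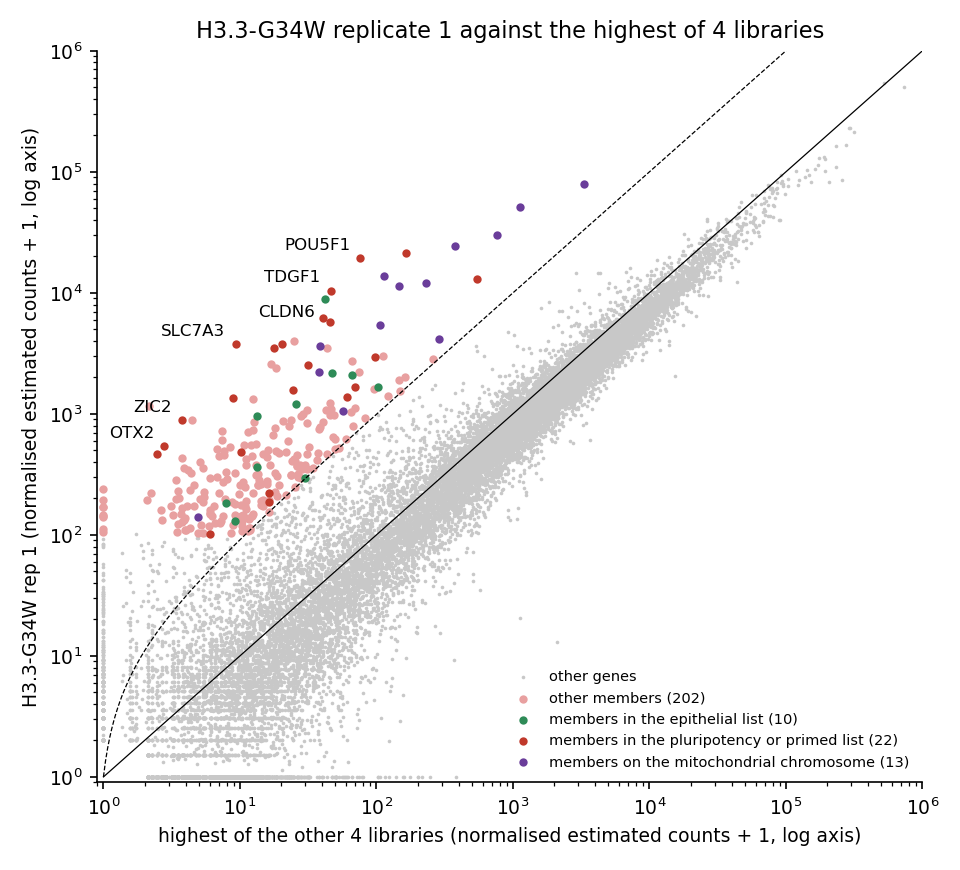
Each point is a gene, with the highest of the other 4 libraries on the x axis and H3.3-G34W rep 1 on the y axis, both as normalised estimated counts plus 1 on log axes; the solid line marks equal values and the dashed curve a 10-fold ratio of the values before 1 was added. The 247 members lie above the dashed curve, with the 13 mitochondrial genes (purple), the 22 members of the pluripotency and primed lists (red) and the 10 of the epithelial list (green) among them; the 202 other members are pink.

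The members made up 1.18% of the summed normalised estimated counts of H3.3-G34W rep 1. They made up 0.0252% of EV rep 2, 0.0202% of H3.3-G34W rep 2, 0.0211% of H3.3-WT rep 1 and 0.0200% of H3.3-WT rep 2. The share in H3.3-G34W rep 1 was 47.0 times the highest of the others, a ratio that the choice of members fixes in direction. Counting only what stood above the highest of the other 4 libraries, gene by gene, the members' excess was 1.15% of the library. A further 416 genes with a value of at least 100 stood 2 to 10 times above the other 4, and their excess was 0.721%. The excess of all 663 genes at 2-fold was thus 1.87% in H3.3-G34W rep 1, against 0.475% in H3.3-WT rep 2, 0.0143% in H3.3-G34W rep 2, 0.00800% in EV rep 2 and 0.00580% in H3.3-WT rep 1. Genes that also stood high in the other 4 libraries could not enter these sums. The shares are therefore not the amount of all RNA in which this library differed, which was not measured.

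A small number of genes carried most of this share. The 53 members at 1000 or above held 85.9% of the members' sum. The 13 protein genes of the mitochondrial chromosome, all of them members, held 52.0% of it, or 0.616% of the library, and the other 234 members held 0.568%. Among these 234, the 22 members of the pluripotency and primed lists held 46.1% of the sum and the 10 members of the epithelial list held 8.18%. The 20 members with the largest values were 10 mitochondrial genes and CD24, POU5F1, DNMT3B, TDGF1, CLDN6, DPPA4, LIN28A, GPC4, SLC7A3 and TRIM71.

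Mitochondria carry their own small genome, which encodes 13 subunits of the respiratory chain and of ATP synthase, and most of its messages bear short poly(A) tails. All 13 were higher in H3.3-G34W rep 1 than in each other library. MT-CO1, the catalytic subunit of cytochrome c oxidase, stood at 3315 in EV rep 2, 78864 in H3.3-G34W rep 1, 2648 in H3.3-G34W rep 2, 2095 in H3.3-WT rep 1 and 2981 in H3.3-WT rep 2. MT-ND4, a subunit of complex I, stood at 377, 24539, 267, 253 and 254 in the same order. The 4 other libraries lay close to one another, and H3.3-G34W rep 1 stood apart.

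The ratio to the highest of the other 4 libraries was smallest for MT-ND5 (14.5) and largest for MT-ATP6 (123), and those of the cytochrome c oxidase genes MT-CO2 and MT-CO3 were 39.6 and 45.6. Together the 13 genes made up 0.0154% of EV rep 2, 0.0119% of H3.3-G34W rep 2, 0.0108% of H3.3-WT rep 1 and 0.0125% of H3.3-WT rep 2. The respiratory chain and ATP synthase subunits that are encoded in the nucleus did not show this difference. A set of 83 such genes, drawn up after the mitochondrial values were seen, made up 1.10% of H3.3-G34W rep 1 and 0.916% to 0.990% of the others, with a median log2 ratio of -0.00 to the mean of the other 4. Of these 83, COX7C alone was at least 2 times the highest of the other 4 (6274 against 2524). Reads of mitochondrial genes and of their nuclear copies are hard to tell apart, and 2 such copies, MTATP6P1 (3481) and MTND2P28 (321), were members as well. Without the mitochondrial genes and these copies, 232 members remained, with 0.558% of the library.

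**Figure D3:**
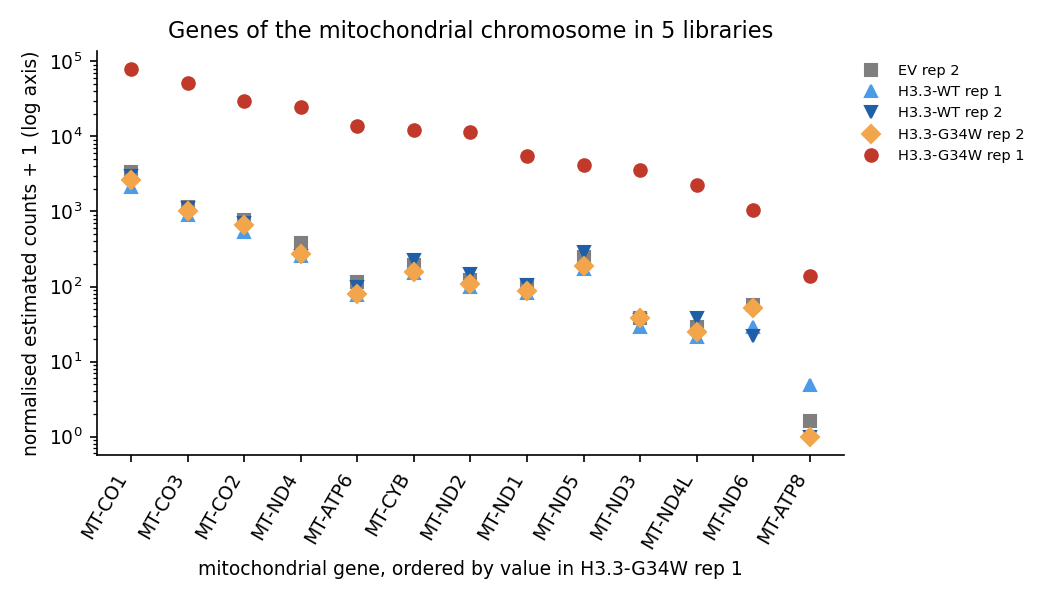
Normalised estimated counts plus 1 (y axis, log scale) of the 13 protein genes of the mitochondrial chromosome, ordered by their value in H3.3-G34W rep 1 (x axis), with 1 point per library. H3.3-G34W rep 1 is the highest for each gene; for MT-CO1 it stands at 78864 and the other 4 libraries between 2095 and 3315.

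The identity of the RNA encoded in the nucleus was described with 16 lists of marker genes. For each list, the log2 ratio of H3.3-G34W rep 1 to the mean of the other 4 libraries was taken with 1 added to each value, and genes were counted that reached at least 2 times the highest of the other 4. Over all genes above 0 in any of the 5 libraries, 8.45% did so. Over the 13151 genes with a mean of at least 50 in the other 4, the median log2 ratio was -0.23. That median moved to -0.06 when the libraries were rescaled to a median ratio of 1, so a list median is best read against it. These values come from the contrast that chose the members and are given without a test.

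Among the 5 libraries compared, the pluripotency list stood highest in H3.3-G34W rep 1 for each of the 23 genes analysed. Of these, 16 were members and 21 reached 2-fold, and the median log2 ratio was 5.34. The summed values of the list were 5848 in EV rep 2, 88496 in H3.3-G34W rep 1, 3404 in H3.3-G34W rep 2, 4646 in H3.3-WT rep 1 and 9499 in H3.3-WT rep 2. As shares of the estimated counts, the list made up 0.228% of H3.3-G34W rep 1 and at most 0.0198% of any other library. Only 4 of the 23 genes reached 100 in another library, which were DNMT3B, PODXL, USP44 and LIN28B.

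POU5F1, the OCT4 factor at the centre of the pluripotency network, stood at 41.6 in EV rep 2, 19441 in H3.3-G34W rep 1, 65.7 in H3.3-G34W rep 2, 47.3 in H3.3-WT rep 1 and 75.4 in H3.3-WT rep 2. The other 4 libraries were all low, and H3.3-G34W rep 2 lay among them. NANOG, the homeobox factor that stabilises self-renewal, stood at 23.6, 2544, 18.6, 14.9 and 30.7 in the same order. SOX2, the HMG-box partner of OCT4 on DNA, stood at 5.62, 1347, 7.96, 7.22 and 3.64. Among the 5 libraries compared, all 3 core factors were thus high in H3.3-G34W rep 1 alone. In EV rep 1, described below and not on the scale of the other libraries, POU5F1 stood at 2135, NANOG at 1182 and SOX2 was listed at 0. NANOG and SOX2 were singled out after their values were seen, and POU5F1 and NANOG have near-identical copies in the genome (POU5F1B and other pseudogenes, NANOGP8) that can share their reads.

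LIN28A, an RNA-binding protein that blocks maturation of let-7 microRNAs, stood at 44.9 in EV rep 2, 5765 in H3.3-G34W rep 1, 40.3 in H3.3-G34W rep 2, 34.9 in H3.3-WT rep 1 and 38.3 in H3.3-WT rep 2. TRIM71, a let-7 target that binds messenger RNA, stood at 19.4, 3744, 14.8, 13.9 and 10.9 in the same order. DPPA4, a chromatin protein of early embryos, stood at 36.4, 6188, 11.3, 39.7 and 29.1. These 3 genes were again low in each of the other 4 libraries. DNMT3B, the methyltransferase that sets DNA methylation anew, was an exception in its level elsewhere: it stood at 541, 13081, 395, 515 and 458 and so was present in all 5 libraries. SLC7A3, a carrier of cationic amino acids, stood at 8.11, 3765, 3.41, 8.33 and 5.83.

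Among genes of the list that were not members, PODXL, an anionic surface glycoprotein, stood at 10548 in H3.3-G34W rep 1 and at 8304 in H3.3-WT rep 2. USP44, a deubiquitinase, stood at 1799 against at most 427, and LIN28B, the paralogue of LIN28A, at 1598 against at most 253. GDF3, a TGF-beta family ligand, fell short of the value of 100, at 82.4 and listed at 0 in the other 4. TERT, the catalytic subunit of telomerase, stood at 42.9 against 32.8 in EV rep 2. ESRG, the last gene of the list, was not analysed here.

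Genes of the primed state had the highest list median, at 7.16, with 6 members and 8 of 10 genes at 2-fold. OTX2, a homeobox factor of the epiblast and later of the forebrain, stood at 541 in H3.3-G34W rep 1 and at 1.80 in H3.3-WT rep 1, and was listed at 0 in the other 3. ZIC2, a zinc-finger factor that opens enhancers in the primed state, stood at 2.78 in EV rep 2, 889 in H3.3-G34W rep 1, 1.01 in H3.3-G34W rep 2, 0.988 in H3.3-WT rep 1 and 1.30 in H3.3-WT rep 2. Its ratio of 320.0 became 686 without EV rep 2. SFRP2, a secreted inhibitor of WNT signals, stood at 16.9, 3470, 8.53, 11.1 and 10.9 in the order used for ZIC2. The fourth large member of this list, the surface protein CD24, stood at 163, 21435, 74.2, 121 and 128, and it has a near-identical copy, CD24P4, so that its value is less certain.

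Not every gene of the primed list was high. FGF2, the growth factor on which primed cells depend, stood at 8170 in H3.3-G34W rep 1, below each other library (10293 to 17268). SOX11 stood at 704, within the range of the others (569 to 963). THY1, a surface protein of both stem cells and mesenchymal cells, stood at 7023 against 2537 to 2955. FGF2, SOX11 and THY1 all exceeded 100 in every other library too.

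Genes of the naive state stood apart from the primed genes. None of the 10 was a member, 2 reached 2-fold, and the median log2 ratio was -0.34. The median ran from -0.50 without H3.3-WT rep 2 to -0.21 without EV rep 2, and was -0.18 after rescaling. KLF17, a zinc-finger factor that marks the naive state, stood at 43.7 in EV rep 2, 29.2 in H3.3-G34W rep 1, 46.1 in H3.3-G34W rep 2, 36.1 in H3.3-WT rep 1 and 37.9 in H3.3-WT rep 2. H3.3-G34W rep 1 was thus the lowest library for KLF17. In H3.3-G34W rep 1, DPPA3 stood at 3.07 against at most 2.22 elsewhere, and DPPA5 at 10.2 against at most 2.27, a ratio of 4.50. DNMT3L was listed at 0 there, against at most 1.21. KLF4, which is also expressed in many somatic cells, had the largest value of the list, at 678 against 1058 to 1416, and KLF5 stood at 181 against 144 to 308. TFCP2L1 was the gene of the list above 100 that stood out most, at 215 against at most 49.4, a ratio of 4.35.

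Nodal signalling keeps primed cells undifferentiated through SMAD2 and SMAD3. Of 14 genes of the pathway, 3 were members and 6 reached 2-fold, with a median log2 ratio of 1.27. Over its genes with a mean of at least 50 in the 5 libraries the median was -0.16. That mean includes H3.3-G34W rep 1, and TDGF1 and FOXH1 passed the filter only through their high values there. The filtered median is therefore no check of the main one. The members were the co-receptor TDGF1 (Cripto), the DNA-binding partner of SMADs FOXH1, and the feedback inhibitor LEFTY1. TDGF1 stood at 45.4 in EV rep 2, 10409 in H3.3-G34W rep 1, 12.04 in H3.3-G34W rep 2, 20.3 in H3.3-WT rep 1 and 34.7 in H3.3-WT rep 2, with H3.3-G34W rep 2 the lowest. The processed copy TDGF1P3 (281) was a member too, and the reads of the pair can be confused. FOXH1 stood at 610.2 against at most 6.35, and LEFTY1 at 127 against at most 2.78. The ligand NODAL stood at 118 against at most 33.6, a ratio of 3.50. The general parts of the pathway were not higher: SMAD2 stood at 6411 against 6586 to 7812, SMAD3 at 2586 against 5349 to 6009, and the type I receptor ACVR1B at 1355 against 1373 to 1992.

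Epithelial genes formed the other list with many members. Of 25 genes, 10 were members, 17 reached 2-fold, 21 were highest in H3.3-G34W rep 1, and the median log2 ratio was 3.02. CLDN6, a tight junction claudin of embryonic epithelia, stood at 41.0 in EV rep 2, 8957 in H3.3-G34W rep 1, 15.2 in H3.3-G34W rep 2, 18.0 in H3.3-WT rep 1 and 28.7 in H3.3-WT rep 2. EPCAM, an adhesion molecule of epithelia, stood at 46.6, 2175, 43.9, 18.2 and 9.97 in the same order. CDH1, the E-cadherin that joins epithelial cells, stood at 60.9, 2104, 64.9, 51.5 and 39.9. For all 3, the other 4 libraries were low and H3.3-G34W rep 2 lay inside or below the range of the EV and H3.3-WT libraries, except that its CDH1 value was slightly the highest of the 4.

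CXADR, a junction protein that also serves as a virus receptor, stood at 1679 against at most 101. The splicing regulator ESRP1, which sets epithelial isoforms, stood at 963 against at most 12.4. The epithelial transcription factors OVOL2 (81.2 against at most 0.883) and GRHL2 (53.0 against at most 30.4) did not reach the value of 100. ESRP1, OVOL2, GRHL2 and KRT19 below were picked after their values were seen. The keratins of simple epithelia on the list held no member: KRT18 stood at 21561 in H3.3-G34W rep 1 against 20425 to 29242, and KRT8 at 15826 against 14366 to 21534. Both were thus inside the range of the other libraries, whereas KRT19 was highest in H3.3-G34W rep 1, at 1411 against 296 to 757, a ratio of 1.86, and the protease inhibitor SPINT2 stood at 3626 against 630.3 to 1075. In all, 9 of the 25 epithelial genes reached 100 in another library.

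**Figure D4:**
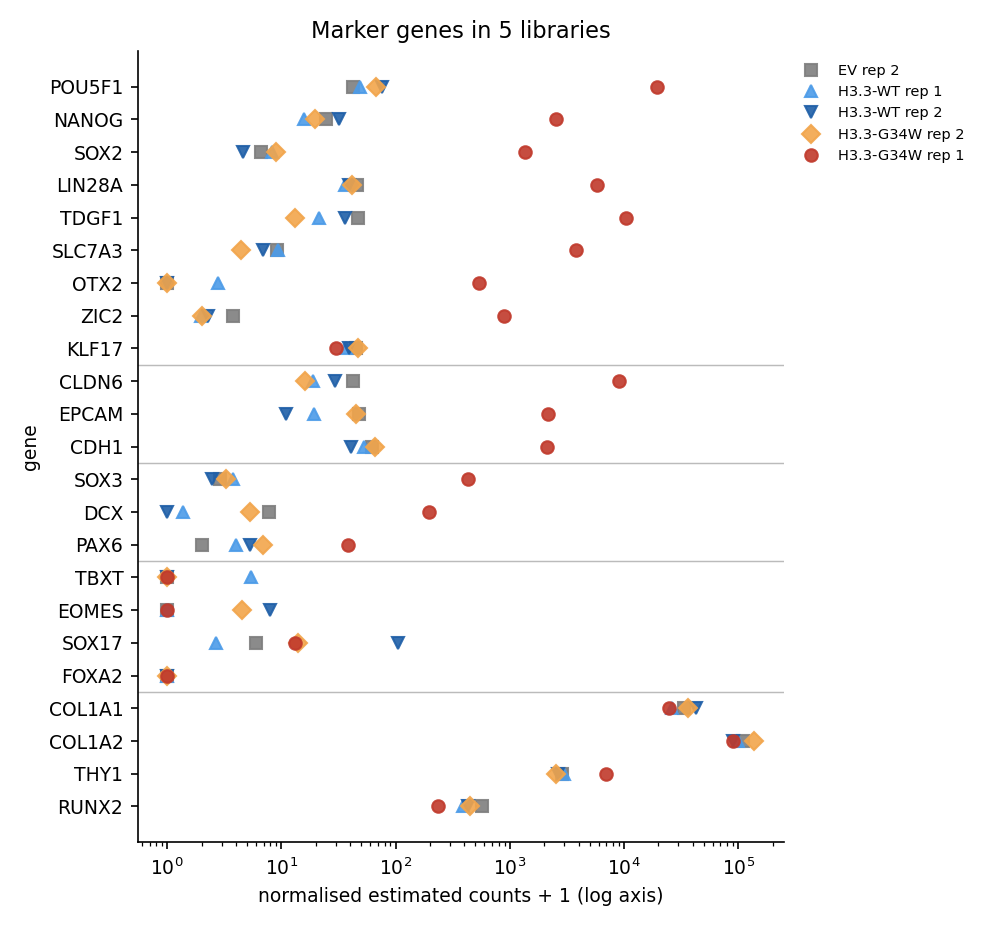
Normalised estimated counts plus 1 (x axis, log scale) of marker genes (y axis) in 5 libraries, with grey lines between pluripotency, epithelial, neural, germ layer and mesenchymal genes. H3.3-G34W rep 1 (red) stands at 19441 for POU5F1, 8957 for CLDN6 and 427 for SOX3, and is the lowest library for KLF17 and RUNX2. It is at 0 for TBXT, EOMES and FOXA2, and FOXA2 is at 0 in every library shown.

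Neural genes were mixed. Of 22, 2 were members, 5 reached 2-fold, and the median log2 ratio was 0.07. SOX3, an X-linked relative of SOX2 in neural progenitors and in pluripotent cells, stood at 1.87 in EV rep 2, 427 in H3.3-G34W rep 1, 2.27 in H3.3-G34W rep 2, 2.78 in H3.3-WT rep 1 and 1.46 in H3.3-WT rep 2. DCX, a microtubule protein of migrating neurons, stood at 196 against at most 6.83. PAX6, a factor of early neural ectoderm, stood at 37.2 against at most 5.96, under the value of 100. SOX1, which marks committed neural cells, stood at 0.512, and RAX, NEUROG1 and HES5 were listed at 0 in H3.3-G34W rep 1. These genes were low elsewhere as well: NEUROG1 and HES5 were listed at 0 in every library compared. SOX1 reached at most 2.27 and RAX at most 7.05 in the others.

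The neural genes with the largest values were also present elsewhere. TUBB3, a neuronal tubulin, stood at 5682 against 3747 to 7295, and the intermediate filament NES at 4005 against 7823 to 13917. NES was thus lowest in H3.3-G34W rep 1. Of 8 neural crest and glial genes, 1 was a member, and the median of that list was -0.51, running from -0.69 to -0.19 when 1 of the other libraries was left out. PAX3 (609 against 698 to 1222) and the receptor NGFR (393 against 777 to 1514) were lower than in each other library. The crest factor SOX10 stood below its 16.7 in H3.3-WT rep 1 but above EV rep 2, H3.3-G34W rep 2 and H3.3-WT rep 2. Its log2 ratio to the mean of the other 4 libraries was 1.18.

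Germ layer genes held no member. Of 11 mesoderm genes, KDR reached 2-fold, and the median log2 ratio was -1.08. KDR, the VEGF receptor found on early mesoderm and endothelium, stood at 54.5 in EV rep 2, 656 in H3.3-G34W rep 1, 26.6 in H3.3-G34W rep 2, 78.3 in H3.3-WT rep 1 and 76.3 in H3.3-WT rep 2, a ratio of 8.38. TBXT, EOMES, HAND1, MSGN1 and EVX1 were listed at 0 in H3.3-G34W rep 1. In the other 4 libraries these genes stood at 0 or low, with EVX1 in H3.3-WT rep 1 the highest at 11.7. The median of the list is the log2 ratio of TBXT, which was above 0 only in H3.3-WT rep 1 (4.44), and over the 4 genes with a mean of at least 50 in the 5 libraries the median was -1.18. Summed, the list stood at 813 in H3.3-G34W rep 1, of which KDR made up most, against 336 to 481 in the other 4. MIXL1 stood at 21.0 against at most 13.1.

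Of 11 endoderm genes, 3 reached 2-fold and the median was -0.25. It became 0.31 without H3.3-WT rep 2, so its sign rested on that library. The endoderm genes at 2-fold were FOXA1 (45.7 against at most 10.5), CXCR4 (30.4 against at most 4.35) and APOA1 (7.69 against at most 2.26). SOX17, the factor that defines definitive endoderm, stood at 12.3 in H3.3-G34W rep 1, inside the range of the other libraries. It was lower in EV rep 2 and H3.3-WT rep 1, and higher in H3.3-G34W rep 2 (13.1) and H3.3-WT rep 2 (104). FOXA2, GSC and GATA4 were listed at 0 in H3.3-G34W rep 1. FOXA2 was listed at 0 in every other library compared too, and GSC and GATA4 reached at most 1.14 there. HHEX, with the largest value of the list, stood at 248 against 304 to 441.

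The trophoblast list held 0 members of 10 genes, with 2 at 2-fold and a median of -0.41. KRT7, its gene with the largest value, stood at 16621 against 12309 to 22167, and CDX2 stood at 2.05 and was listed at 0 elsewhere. Of 9 germ cell genes, DAZL, an RNA-binding protein of germ cells, was the member (119 against at most 4.15), and PIWIL2, of the piRNA pathway, stood at 356 against at most 57.3. KIT stood at 502 against at most 456, SOX15 at 149 against 161 in EV rep 2, and DDX4, which marks later germ cells, was listed at 0. The median of that list was 0.62.

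Blood and vessel lists gave no member either. The myeloid list had a median of 0.22 and 1 of 8 genes at 2-fold, which was AIF1, at 1.83. The lymphoid list had a median of -0.19, the endothelial list -0.03 and the erythroid list -0.16, each with 0 genes at 2-fold. Leaving out 1 library at a time moved 3 of these medians across 0: the myeloid median ran from -0.0089 to 0.59, the endothelial from -0.23 to 0.18 and the erythroid from -0.25 to 0.12. The genes with the largest values of the myeloid, endothelial and erythroid lists were CD68 (850.4 against 981 to 1268), TEK (1548 against 782 to 1958) and HBE1 (17.3 against at most 30.7).

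Mesenchymal and osteoblast genes were mostly lower in H3.3-G34W rep 1. Of 28, 14 stood below each of the other 4 libraries (50%), against 45.2% of the 13151 genes with a mean of at least 50. The list share was thus close to that of all genes. The median log2 ratio was -0.37, and -0.21 after rescaling. VIM, the intermediate filament vimentin, stood at 161866 in EV rep 2, 109267 in H3.3-G34W rep 1, 142133 in H3.3-G34W rep 2, 145103 in H3.3-WT rep 1 and 233828 in H3.3-WT rep 2. SPARC, a matrix protein of bone, stood at 72998, 73806, 85409, 76069 and 79359 in the same order. VIM was lowest in H3.3-G34W rep 1, and SPARC lay near the lower end of a narrow range.

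Within the list, the ratio to the highest of the other 4 was largest for THY1 (2.38) and smallest for COL6A3, a collagen VI chain (0.387). COL6A3 stood at 9605 in H3.3-G34W rep 1 and at 8438 in H3.3-G34W rep 2, against 16618 to 24798 in the other 3. The list as a whole made up 1.63% of H3.3-G34W rep 1 and 1.75% to 1.99% of the other 4. In bulk RNA, a smaller number of cells of a type and less RNA per cell cannot be told apart. Whether the pluripotency genes and the mesenchymal genes of this library came from the same cells was not tested.

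**Figure D5:**
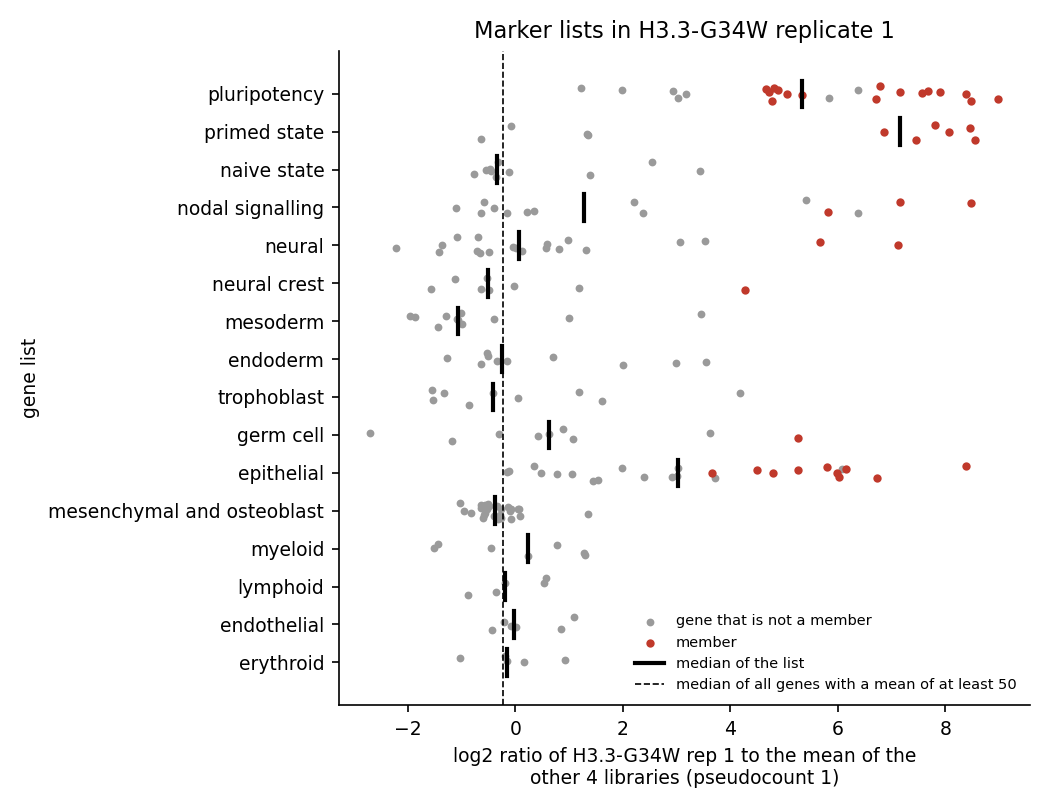
Log2 ratio of H3.3-G34W rep 1 to the mean of the other 4 libraries, with a pseudocount of 1 (x axis), for each gene above 0 in the 16 lists (y axis); red points are members, bars are list medians, and the dashed line is the median of all genes with a mean of at least 50. The primed (7.16), pluripotency (5.34) and epithelial (3.02) medians lie far right of the dashed line at -0.23, and the mesoderm median (-1.08) left of it.

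The lists covered 38 members, and 196 further members lay outside them and outside the mitochondrial chromosome, with 44.9% of the sum of members encoded in the nucleus. GPC4, a cell surface proteoglycan that binds growth factors, had the largest value of these, at 21.2 in EV rep 2, 3966 in H3.3-G34W rep 1, 21.0 in H3.3-G34W rep 2, 23.9 in H3.3-WT rep 1 and 16.03 in H3.3-WT rep 2. The 4 other libraries lay within a narrow range. The genes named in the rest of this paragraph were picked after their values were seen, for roles that are well known. Genes of the FGF family and of its receptors included FGF13 (3004), FGFR2 (227) and FGF19 (142). Transcription factors included MYCN (1318 against at most 11.4), NR6A1 (2028) and ZNF423 (114). Genes of synapses and excitable cells included the adhesion protein NLGN4X (1228), the glutamate receptor subunit GRIA4 (173) and the calcium channel subunit CACNA1E (136). Surface proteins included the P-cadherin CDH3 (1401 against at most 121), the stem cell antigen PROM1 (424) and podoplanin, PDPN (991 against at most 28.2).

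What the members share beyond their values was described by position and by promoter sequence. The rule used no sequence, and of position only that it left out chromosome Y. Members lay on every chromosome considered except 17, which held 0 members among 726 genes that reached 100 in H3.3-G34W rep 1. The X chromosome held 29 of 436 (6.65%), chromosome 13 held 8 of 211 (3.79%) and chromosome 12 held 4 of 641 (0.624%), against 1.97% over all such genes. The 6 markers given with the rule lay on 6 different chromosomes: POU5F1 on 6, TDGF1 on 3, CLDN6 on 16, OTX2 on 14, ZIC2 on 13 and SLC7A3 on X.

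Promoter windows from RefSeq (build GRCh38.p14, 250 bases before to 50 after each transcript start, 300 in all) were matched to 169 of the 247 members by gene identifier, in 255 windows. OCT4 binds an octamer and SOX2 a shorter string beside it, so both were searched on both strands: the octamer ATGCAAAT (reverse complement ATTTGCAT) and the SOX string ACAAAG (reverse complement CTTTGT). Both strings hold the letters CAAA, and each was counted on its own. The octamer was in 4 of 255 windows of members (1.57%) and in 1.77% of all 34961 windows. The SOX string was in 49 windows of members (19.2%) and in 16.1% of all windows. The median number of CpG dinucleotides was 16 in windows of members and 14 in all windows. A string found in a window is a description of its letters and not evidence of binding.

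The windows of the 4 members with the octamer are printed first, because OCT4 stands at the centre of the network described above, and then those of DNMT3B and ZFP42, which hold the SOX string and belong to the pluripotency list. Capitals mark the string that was found, and each window reads 5′ to 3′ on the strand of its gene. The octamer windows are SFRP2 (chr4:153789034-153789333, minus strand), PCYT1B (chrX:24647298-24647597, minus strand), PRKCB (chr16:23835733-23836032, plus strand) and EGLN3 (chr14:33951025-33951324, minus strand). The SOX windows are DNMT3B (chr20:32779602-32779901, plus strand) and ZFP42 (chr4:187995521-187995820, plus strand).
SFRP2: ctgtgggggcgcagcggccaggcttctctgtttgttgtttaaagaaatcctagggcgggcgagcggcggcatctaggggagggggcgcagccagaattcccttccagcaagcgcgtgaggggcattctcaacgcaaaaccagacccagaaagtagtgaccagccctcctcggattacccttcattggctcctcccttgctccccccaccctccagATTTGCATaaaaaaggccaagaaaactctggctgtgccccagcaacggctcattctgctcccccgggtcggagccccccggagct
PCYT1B: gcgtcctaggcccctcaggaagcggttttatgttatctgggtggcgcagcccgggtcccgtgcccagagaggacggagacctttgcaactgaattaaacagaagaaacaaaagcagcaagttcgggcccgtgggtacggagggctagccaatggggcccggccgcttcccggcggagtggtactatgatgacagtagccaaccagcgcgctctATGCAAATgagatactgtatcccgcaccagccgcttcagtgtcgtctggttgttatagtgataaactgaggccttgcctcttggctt
PRKCB: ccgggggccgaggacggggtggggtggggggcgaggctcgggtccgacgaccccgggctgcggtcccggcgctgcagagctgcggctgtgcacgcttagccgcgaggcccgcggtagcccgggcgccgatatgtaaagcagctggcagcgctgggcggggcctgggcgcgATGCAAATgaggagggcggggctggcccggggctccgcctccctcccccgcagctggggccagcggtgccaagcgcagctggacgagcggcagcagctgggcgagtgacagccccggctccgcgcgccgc
EGLN3: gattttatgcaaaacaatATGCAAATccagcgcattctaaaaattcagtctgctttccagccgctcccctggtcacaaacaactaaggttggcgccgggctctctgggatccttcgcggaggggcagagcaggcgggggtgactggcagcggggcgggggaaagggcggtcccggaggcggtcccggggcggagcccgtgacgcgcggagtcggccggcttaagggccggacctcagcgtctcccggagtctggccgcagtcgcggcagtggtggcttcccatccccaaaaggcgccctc
DNMT3B: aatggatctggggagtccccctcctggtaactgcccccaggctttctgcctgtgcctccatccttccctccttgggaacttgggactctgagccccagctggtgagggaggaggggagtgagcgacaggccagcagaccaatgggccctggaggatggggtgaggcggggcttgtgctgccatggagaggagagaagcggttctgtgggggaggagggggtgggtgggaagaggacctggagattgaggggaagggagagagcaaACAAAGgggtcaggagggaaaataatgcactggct
ZFP42: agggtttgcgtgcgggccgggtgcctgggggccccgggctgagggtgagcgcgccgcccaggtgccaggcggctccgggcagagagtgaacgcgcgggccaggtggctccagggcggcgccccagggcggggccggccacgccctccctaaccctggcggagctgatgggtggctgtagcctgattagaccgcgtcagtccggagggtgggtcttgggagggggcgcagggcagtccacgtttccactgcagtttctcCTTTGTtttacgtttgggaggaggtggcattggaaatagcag

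The octamer began 35 bases before the transcript start in SFRP2, 37 before it in PCYT1B, 80 before it in PRKCB and 232 before it in EGLN3. It read in the reverse direction in SFRP2 and forward in the other 3. PCYT1B, an enzyme of phosphatidylcholine synthesis, stood at 380.1 in H3.3-G34W rep 1 against at most 15.6. PRKCB, a protein kinase C, stood at 317 against at most 12.5, and EGLN3, an oxygen-sensing prolyl hydroxylase, at 314 against at most 22.7. These 3 were named for their windows and not by their levels. ZFP42 (REX1), a zinc-finger protein of pluripotent cells, stood at 72.7 in EV rep 2, 2968 in H3.3-G34W rep 1, 59.9 in H3.3-G34W rep 2, 60.5 in H3.3-WT rep 1 and 96.3 in H3.3-WT rep 2, and its level in the other 4 libraries was low but above 0.

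The rule held all 4 other libraries to values at least 10 times lower than H3.3-G34W rep 1, so a gene equally high in both H3.3-G34W libraries could not be a member. How the members' low values were spread over the 4 libraries is therefore a description. Among the 238 members above 0 in these 4, H3.3-G34W rep 2 was the highest for 46 (19.3%), EV rep 2 for 66 (27.7%), H3.3-WT rep 1 for 73 (30.7%) and H3.3-WT rep 2 for 53 (22.3%). Over the 136 members with a mean of 0.5 to 10 in the 4 libraries, H3.3-G34W rep 2 was the highest for 26 (19.1%), against 20.9% of all 6005 genes in that range. EV rep 2 was the highest for 35 of these members (25.7%, against 23.8%), H3.3-WT rep 1 for 47 (34.6%, against 33.6%) and H3.3-WT rep 2 for 28 (20.6%, against 21.7%).

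A limma fit compared H3.3-G34W rep 2 with EV rep 2 and both H3.3-WT libraries. It used the log2 of each value plus 1, over the 23084 genes that reached 1 in any of these 4. The rule had capped the members' values in all 4, so no conclusion on the members is drawn from this fit. At an adjusted p under 0.05, limma called 0 genes higher (0%) and 0 lower (0%), and so 0 of the 238 members tested. At an unadjusted p under 0.05, 928 genes were higher (4.02%) and 399 lower (1.73%), with 6 members higher and 10 lower. These last counts rested on single libraries. Without H3.3-WT rep 1, 19 members were higher (8.19%, against 5.96% of all genes) and 9 lower (3.88%, against 2.08%). Leaving out H3.3-WT rep 2 gave 11 higher (4.66%, against 4.96%) and 18 lower (7.63%, against 2.66%), and leaving out EV rep 2 gave 9 higher (3.86%, against 4.86%) and 8 lower (3.43%, against 1.79%). The log2 difference was positive for 118 members and negative for 120, with a median of -0.00 against 0.03 over all genes. The other 9 members were listed at 0 in all 4 libraries and had no value to test.

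With a pseudocount of 0.1 in place of 1, the fitted log2 difference was 6.92 for MAML1, 4.48 for IGSF21 and -3.37 for CALN1. These members are named because limma called them at that setting, and nothing is read from their number. MAML1, a coactivator of Notch signalling, stood at 12.02 in H3.3-G34W rep 2 and was listed at 0 in the other 3, and IGSF21 stood at 2.14 and was listed at 0 in those 3. CALN1 stood at 1.40 against 13.5 to 17.0. The lone library was assumed to vary like the other 3, and p-values measure only the spread between these samples, which may be technical. A count of 0 does not show that the members were alike in the 4 libraries, and since the rule capped their values, it does not bear on genes raised in both H3.3-G34W libraries.

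EV rep 1, the library left out, had a smaller share of genes above 0 outside chromosomes 10, 11 and 12 than on them. On chromosomes 10 and 11, 19 of 22 members were above 0 in it (86.4%), against 99.6% of the genes there that reached 100 in H3.3-G34W rep 1. All 4 members on chromosome 12 were above 0, against 81.6% of such genes. Elsewhere 41 of 221 members were above 0 (18.6%), against 29.9% of the 10674 genes there that reached 100 in H3.3-G34W rep 1. Of these members, 28 stood above each of EV rep 2 and both H3.3-WT libraries (12.7%), against 3.01% of those genes. The rule held members low in those libraries and did not do so for the other genes. It therefore favours this difference, and nothing is read from it. With this library among those compared, 210 members were left, with 1.09% of H3.3-G34W rep 1, and POU5F1 fell out at a ratio of 9.11. Values of EV rep 1 are not on the scale of the other libraries. VIM, on chromosome 10, stood at 3.53e+06 in it, against 109267 to 233828 elsewhere. The drop in members and the ratio of POU5F1 are therefore no check of the members.

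All member values come from 1 library, and the other H3.3-G34W library did not hold them at that level, so their spread between libraries could not be measured. The depth of the libraries is unknown, and no interval is given for any value.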

How the data were processed

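The deposited table holds a signal that the authors made for 35639 genes in 6 libraries: estimated counts per transcript from kallisto on Ensembl 99 models of GRCh38, brought to genes with tximport and normalised with DESeq2. The values are not whole numbers, low values in a library are not all multiples of a single step, and whole reads were not recovered, so no count-based test was run, the depth is unknown, and no interval or floor is given. A value of 0 is written as listed at 0.

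The members and marker lists were chosen with earlier results of these data known. Chromosomes were assigned from the gene annotation (99.1% of identifiers), and genes of chromosome Y were left out. Ratios were taken on the values, and log2 ratios with a pseudocount of 1. H3.3-G34W rep 2 was compared with EV rep 2 and both H3.3-WT libraries with limma 3.58.1 (R 4.3.3), two-sided, moderated variances, and p-values adjusted by Benjamini and Hochberg's method over 23084 genes at a threshold of 0.05. The fit was tested on simulated data, where it missed the changes put in and a fit with a variance trend found part of them, so a count of 0 from it can miss changes. Python 3.11.15, pandas 2.3.3, numpy 2.4.6 and matplotlib 3.10.9 were used. Alternatives covered the fold and value thresholds, scaling, pseudocount, filters, the variance trend, a replicate block and leaving out each library.

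Named genes are the 6 markers given with the rule, the 20 members with the largest value and the 10 with the largest ratio, up to 4 members and 3 other genes of each list by value, the genes on either side of each threshold, members called by limma, genes of the mirror rule, and the mesenchymal genes with the highest and lowest ratio; others are stated as picked after their values were seen. Some genes that this rule names are not reported here. Reads can be shared between near-identical copies, which makes CD24, POU5F1, NANOG, TDGF1, CKMT1A and CKMT1B, AKR1C2 and AKR1C3, the protocadherin and MAGEA genes, RPL10P9 and the mitochondrial genes less certain.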

Additional observations from a re-analysis of the deposited data

Results flagged for a closer look

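EV rep 1, which the rule left out when the members were chosen, was looked at because some members had larger listed values in it than in the control libraries. Outside chromosomes 10, 11 and 12, where most of its genes are listed at 0, 28 members stood above each of EV rep 2 and both H3.3-WT libraries. The rule that chose the members held them low in those libraries, so it favours this count. The 3 with the largest values there were POU5F1 at 2135, against 41.6 to 75.4 in EV rep 2 and the H3.3-WT libraries, CDH1 at 786, against 39.9 to 60.9, and LIN28A at 383, against 34.9 to 44.9. The values of EV rep 1 sum to 1.58e+08, and VIM, on chromosome 10, stood at 3.53e+06 in it against 109267 to 233828 elsewhere. Its levels are thus not on the scale of the other libraries, and these members cannot be called raised in it. The differences were not tested.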

How the results depend on the processing

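The number of members ran from 166 to 370 over folds of 20 and 5, from 170 to 299 over least values of 200 and 50, and from 257 to 268 when 1 of the other 4 libraries was left out. It was 269 after rescaling the libraries to a median ratio of 1. With EV rep 1 added it was 210, but the values of that library are not on the scale of the others. The members' share of H3.3-G34W rep 1 was 1.36% at 5-fold, 1.08% at 20-fold, 1.19% with a least value of 50, 1.15% with a least value of 200, 1.20% after rescaling, 1.19% to 1.20% leaving out each library, and 1.09% with EV rep 1 added. As an excess over the mean of the other 4 it was 1.16%, and over their highest 1.15%. Alternatives chosen after seeing the data gave 0.568% without the mitochondrial genes, 0.558% without these and their nuclear copies, and 1.13% without CD24. Each of these settings changes which genes or amounts are summed.

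Of 110 list medians under the alternatives, 99 kept their sign and 11 changed it or came to 0. With only genes at a mean of at least 50 over the 5 libraries, the pluripotency median was 6.71 and the primed median 7.45, from fewer genes. The Nodal median, 1.27 in the main setting, was -0.16. That mean includes H3.3-G34W rep 1, so some genes passed only through their high values there. These filtered medians are therefore no check of the main ones. Leaving out each library in turn, the primed median ran from 7.02 to 7.66, the neural median from 0.010 to 0.39, the endoderm median from -0.42 to 0.31 and the epithelial median from 3.05 to 3.58. The mesenchymal median was -0.21 after rescaling.

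The limma comparison of H3.3-G34W rep 2 called 623 genes, 3 of them members, with a pseudocount of 0.1, and the cause was not tested. It called 0 genes without a filter, with a stricter filter, with a variance trend, after rescaling and leaving out each library in turn. With a replicate block no gene was called either. DESeq2 was not run, because the table holds no whole counts. The unknown depth limits what low values in the other libraries can show.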

Other observations

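Gene families were counted by symbol after the values were seen. Each count is given over the genes of the family that reached 100 in H3.3-G34W rep 1, beside 1.97% of all such genes. In a family that is low in the other libraries, reaching 100 there nearly makes a gene a member. A high count over this filter is therefore not read as a result. Of 17 clustered protocadherins, which give neurons their surface identity, 7 were members (PCDHB2, PCDHA10, PCDHB5, PCDHA11, PCDHA6, PCDHAC2 and PCDHA12). Tissue kallikreins, which are secreted proteases, gave all 3 that reached 100 (KLK6, KLK5 and KLK10), the ZIC factors 3 of 4, and the type A MAGE genes, which are active in testis and tumours, both that did (MAGEA4 and MAGEA3). HOX genes gave 0 of 18, keratins 0 of 8 and collagen chains 1 of 29 (COL26A1), and nothing is read from these low counts. HOX values summed to 6730 in H3.3-G34W rep 1 against 8880 to 11394 in the other 4 libraries, and collagen values to 385569 against 488455 to 564588. A set of 63 replication-dependent histone genes made up 1.55% of H3.3-G34W rep 1 and 1.67% to 1.99% of the other 4, with a median log2 ratio of -0.48 and 0 genes at 2-fold.

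Of the 416 genes between 2-fold and 10-fold, 13 were in the marker lists. Among those picked after their values were seen, SNRPN, an imprinted splicing gene, stood at 14583 against 1860.1 to 2902, the telomere protein TERF1 at 4750.2 against 616 to 916, the Polycomb gene PHC1 at 4490.5 against 634 to 1014, the zinc-finger gene SALL2 at 3618 against 294 to 538, and the serine synthesis enzyme PSAT1 at 10463 against 1957 to 3021. H3-3A, the human gene for the same histone variant, stood at 11161 against 3793 to 5570.4.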
